A study of Mus musculus with 10 samples.

Results

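Baseline chromatin accessibility was described in the Control innate lymphoid cells (ILCs) of the mouse small intestine, which form 3 of the 10 libraries of an assay for transposase-accessible chromatin with sequencing (ATAC-seq). The members are the columns of Control replicates 1, 2 and 3. Their C57BL/6 mice carried Id2creERT2+ x tdRFP+ and no floxed allele in the labels, so that Cre recombinase, under the control of Id2 and activated by tamoxifen, had no labelled target gene to delete beyond the reporter. All groups of the study, the Control group included, received a tamoxifen diet some weeks before sorting, and each library came from 1 mouse or from 2 or 3 pooled mice. Cells were taken from the lamina propria by collagenase digestion, enriched magnetically and sorted on surface markers, and their DNA was tagged by Tn5 transposase with digitonin. The sources used here give neither the surface markers nor the age or sex of the mice. The study deleted lineage-defining transcription factors in the other groups, which are not compared here.

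ILCs are tissue-resident lymphocytes without rearranged antigen receptors. They are grouped by their cytokines and transcription factors into type 1, type 2 and type 3 cells, and the small intestine is known for type 3 ILCs, which make interleukin 17 and interleukin 22, and for lymphoid tissue inducer (LTi)-like cells. Tn5 inserts adapters where DNA is not covered by nucleosomes, so reads gather at promoters and enhancers. An open site shows where regulatory proteins could bind and is no measure of transcription.

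The deposited table holds 36262 peaks, and the 36251 outside Y were ranked. A value is the log2 of a peak's reads multiplied by 1 factor per library, here called scaled reads. The reads recovered from the values summed to 3381784 in replicate 1, 3361390 in replicate 2 and 2518233 in replicate 3, with a median of 48, 49 and 39 reads per peak. Of all peaks, 31329 held at least 10 reads in every library. The peaks had a median length of 481 bp, and coordinates are those of GRCm38. The mean value over the 3 libraries ran from 0.32 to 11.15 with a median of 5.95. A longer peak can collect more reads: across peaks, the mean value correlated with length (Pearson's r = 0.784 over 36251 peaks, which share their libraries and are not replicates), so levels per kb of peak are given beside it for the 33691 peaks of at least 200 bp.

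The RefSeq promoter windows (GRCm38.p6, 250 bases before to 50 after a gene's start) under the highest peaks show what sequence the most open gene starts hold. Of the 20 peaks with the highest mean, 6 covered such a window, and all 6 windows are printed 5′ to 3′ on the gene's strand. Capitals mark every match, on either strand, to 8 short motifs: the GC box GGGCGG, the CCAAT box, the TATA box TATAAA, the ETS core CGGAAG, the AP-1 site TGAGTCA, the RUNX site TGTGGTT, the nuclear receptor motif AGGTCA and the E-box CACGTG.
Zfp788, chr7:41633281-41633580, + strand: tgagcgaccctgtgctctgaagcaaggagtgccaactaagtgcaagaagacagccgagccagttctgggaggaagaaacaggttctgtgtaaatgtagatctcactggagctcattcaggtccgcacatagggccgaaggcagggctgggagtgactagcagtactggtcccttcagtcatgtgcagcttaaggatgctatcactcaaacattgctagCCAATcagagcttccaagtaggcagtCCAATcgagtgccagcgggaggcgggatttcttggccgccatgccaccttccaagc
Aasdhppt, chr9:4309445-4309744, - strand: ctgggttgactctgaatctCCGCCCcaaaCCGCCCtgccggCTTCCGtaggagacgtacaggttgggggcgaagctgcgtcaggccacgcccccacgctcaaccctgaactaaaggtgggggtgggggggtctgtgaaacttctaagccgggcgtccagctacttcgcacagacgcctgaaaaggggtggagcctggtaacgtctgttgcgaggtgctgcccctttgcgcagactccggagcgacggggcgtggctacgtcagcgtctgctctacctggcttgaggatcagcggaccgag
Pdcd10, chr3:75556803-75557102, - strand: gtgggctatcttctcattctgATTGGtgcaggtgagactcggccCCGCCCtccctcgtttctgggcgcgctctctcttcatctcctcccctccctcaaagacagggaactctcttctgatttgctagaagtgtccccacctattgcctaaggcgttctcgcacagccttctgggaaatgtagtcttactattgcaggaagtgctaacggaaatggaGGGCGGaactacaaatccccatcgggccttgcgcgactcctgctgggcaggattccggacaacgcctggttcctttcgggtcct
Hjurp, chr1:88277530-88277829, - strand: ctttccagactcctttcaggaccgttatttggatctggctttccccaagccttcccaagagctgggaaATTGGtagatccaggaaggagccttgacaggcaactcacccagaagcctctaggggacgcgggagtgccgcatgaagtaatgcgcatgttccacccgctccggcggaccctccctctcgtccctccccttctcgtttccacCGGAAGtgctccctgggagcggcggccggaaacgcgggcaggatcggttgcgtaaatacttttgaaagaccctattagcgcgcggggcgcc
Dsel, chr1:111864869-111865168, - strand: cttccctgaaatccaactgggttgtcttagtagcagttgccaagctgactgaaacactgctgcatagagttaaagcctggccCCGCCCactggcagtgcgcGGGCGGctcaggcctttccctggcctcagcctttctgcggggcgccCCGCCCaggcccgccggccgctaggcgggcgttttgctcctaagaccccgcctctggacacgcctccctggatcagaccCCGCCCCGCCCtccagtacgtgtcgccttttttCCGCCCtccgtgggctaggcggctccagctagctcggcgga
Evi5l, chr8:4166317-4166616, + strand: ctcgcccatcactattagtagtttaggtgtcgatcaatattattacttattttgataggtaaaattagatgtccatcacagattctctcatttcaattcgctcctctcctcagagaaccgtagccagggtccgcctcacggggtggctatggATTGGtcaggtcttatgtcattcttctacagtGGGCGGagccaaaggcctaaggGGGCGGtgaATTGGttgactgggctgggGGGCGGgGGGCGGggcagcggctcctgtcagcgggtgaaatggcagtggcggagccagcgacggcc

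GC boxes were found in the windows of Aasdhppt (2), Pdcd10 (2), Dsel (6, of which a pair overlap) and Evi5l (4), and CCAAT boxes in those of Zfp788 (2), Pdcd10 (1), Hjurp (1) and Evi5l (2). An ETS core stood in the Aasdhppt and Hjurp windows, and none of the 6 held a TATA box. Their GC content ran from 54.0% in Zfp788 to 66.0% in Dsel. Their ratio of observed to expected CpG dinucleotides, which is low in most of the genome because methylated CpG is lost over evolution, ran from 0.37 in Zfp788 to 0.83 in Hjurp.

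Over all promoter windows of protein-coding genes outside Y and 18, open windows were more often CpG-rich. A peak covered 10114 of 21044 windows (48.1%). The median observed to expected CpG ratio was 0.798 in windows with a peak and 0.260 in windows without one, and the median GC content was 62.0% and 50.3%. The GC box was present in 69.0% of windows with a peak and 26.0% of those without, against 46.7% of all windows. The ETS core was present in 35.6% and 8.1% (21.3% of all), and the TATA box in 5.7% and 19.1% (12.7% of all). The AP-1 site (3.1% and 6.1%, 4.7% of all), the RUNX site (3.6% and 5.8%, 4.7% of all) and AGGTCA (11.1% and 17.9%, 14.6% of all) were less frequent in windows with a peak than without. CACGTG was more frequent (10.9% and 5.1%, 7.9% of all), and the CCAAT box was nearly as frequent in both (39.5% and 37.6%, 38.5% of all). These are counts of letters, which windows of higher GC content hold more often when the motif is GC-rich, and are no sites of binding.

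Among open windows, the CpG ratio rose with the level per peak, mostly at the low end. Levels per kb were not used in this ranking, and the part of peak length was not tested. When the 10114 windows were ranked by the mean value of their highest peak and cut into 5 equal sets, the median ratio rose from 0.721 in the lowest set (median value 5.53) through 0.797, 0.810 and 0.820 to 0.823 in the highest set (median value 8.86). The share with a CCAAT box rose from 35.3% to 45.5%, and the share with a TATA box fell from 7.6% to 4.0%. The share with an ETS core had no such order: 30.6%, 39.4%, 38.4%, 34.9% and 34.7%.

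Reads were concentrated at gene ends. Peaks within 1 kb of either end of a protein-coding gene numbered 10847, 29.9% of all peaks and 43.4% of the bases in peaks, and held 49.4%, 47.5% and 49.7% of the scaled reads in replicates 1, 2 and 3 (mean 48.9% ± 1.22, SD, n = 3). Peaks inside genes held 29.1% ± 0.455 with 39.0% of the peaks. Peaks between genes, within 50 kb of a gene, held 14.7% ± 0.314 with 20.9% of the peaks, and the 3683 peaks farther away, called gene deserts here, held 7.32% ± 0.510 with 10.2% of the peaks. The gene table has no strand, so a gene end can be the start or the finish of the gene, and 69.2% of the gene-end peaks outside chromosome 18, for which no windows were used, covered a promoter window.

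Gene-end peaks were both longer and higher per base. Their median length was 832 bp, against 401 bp inside genes, 387 bp between genes and 389 bp in deserts. The median log2 level per kb was 7.35 ± 0.06 at gene ends, 7.02 ± 0.03 inside genes, 6.97 ± 0.02 between genes and 6.97 ± 0.13 in deserts (SD, n = 3). The difference between gene ends and the insides of genes was 0.36, 0.23 and 0.40 in replicates 1, 2 and 3, a mean of 0.33 ± 0.09. Each of the 3 libraries showed the same direction, and the exact two-sided sign-flip permutation test gave p = 0.25, the smallest that 3 libraries allow. Over peaks with at least 10 reads in each library the difference was 0.20. The level per kb itself rose with peak length (Pearson's r = 0.346 over 33691 peaks), and the part of length in the difference was not tested.

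Levels were highest near RefSeq gene starts, over the 34977 peaks of chromosomes that have windows. The median value was 6.91 ± 0.07 for the 3715 peaks under 100 bp away and 7.18 ± 0.07 for the 3973 peaks from 100 to 300 bp. It was 6.83 ± 0.07 from 300 to 1000 bp, 5.89 ± 0.03 from 1000 to 3000 bp and 5.53 ± 0.02 from 10000 to 30000 bp. Per kb of peak the fall was smaller, from 7.36 ± 0.08 under 100 bp to 7.27 ± 0.03 at 1000 to 3000 bp and 6.92 ± 0.01 at 10000 to 30000 bp. Beyond 100000 bp the replicates spread apart, with 7.08, 7.19 and 6.91 per kb.

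**Figure D1:**
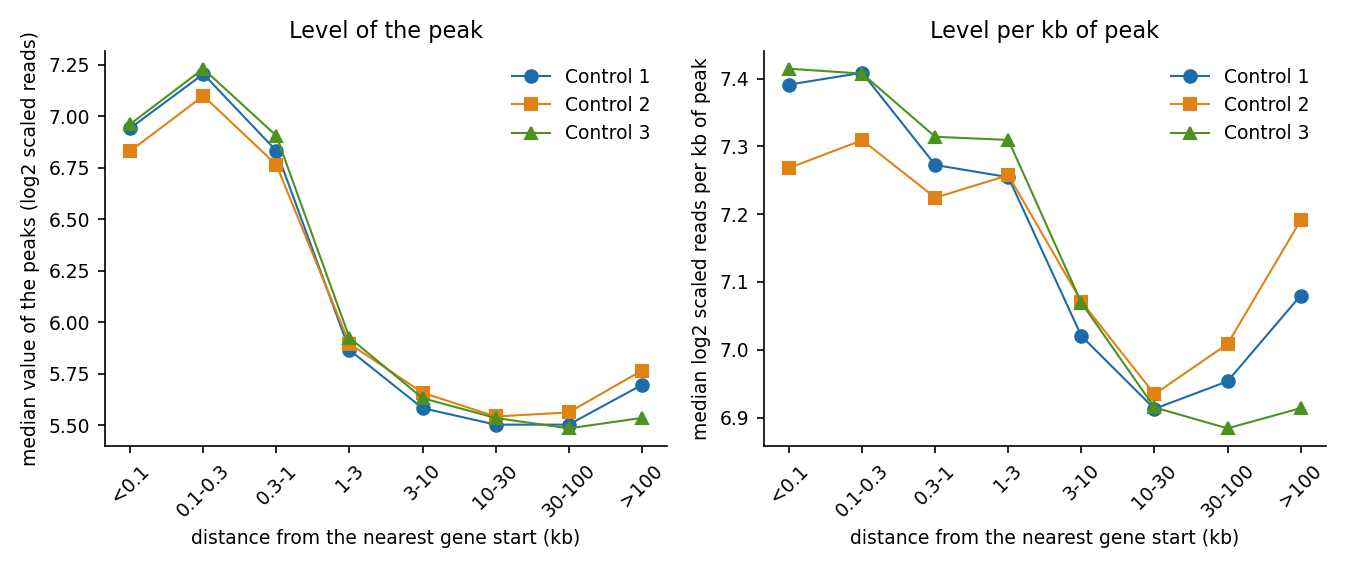
Median value of the peaks (left, log2 scaled reads) and median log2 scaled reads per kb of peak (right) in 8 bins of distance from the nearest gene start in kb; each line is 1 Control library. Both levels are highest within 0.3 kb of a start, and beyond 100 kb replicate 3 lies below replicates 1 and 2.

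A small set of peaks held much of the signal. The top 1% of peaks, 362 with a mean value of at least 9.52, held 8.71%, 8.73% and 7.85% of the scaled reads (mean 8.43% ± 0.50, SD, n = 3). The top 10% held 40.6% ± 1.76, and the lowest 10% held 1.00% ± 0.262. Of the top 1%, 75.4% lay at gene ends and, outside chromosome 18, 66.7% covered a promoter window, with a median length of 1438.5 bp. Of the lowest 10%, 8.72% lay at gene ends, 48.6% inside genes and 15.7% in deserts, with a median length of 216 bp and medians of 7, 8 and 8 reads.

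The single most open peak lay inside Sfi1, which encodes a centrin-binding protein of the centrosome (chr11:3159702-3160048). It held 1865, 2006 and 1179 reads in replicates 1, 2 and 3, for values of 11.24, 11.34 and 10.88 and a mean of 11.15. Of the 20 highest peaks, 7 were nearest to Sfi1. The locus had 23 peaks with a median length of 447 bp, and 13 of the 20 highest peaks per kb. The mouse Sfi1 locus is known for repeated sequence, and the sources used here do not say how reads that match several places were assigned, so its level is uncertain.

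Other peaks of very high level per kb were also short and away from gene starts. The highest per kb of all, with 10023 scaled reads per kb, was a 218 bp peak in a desert 1033349 bp from Lrrc4c, a gene of neuronal adhesion (chr2:98665021-98665238). It held 1172, 1510 and 1929 reads. A 290 bp peak 35163 bp from Pak3, a kinase gene on X, had 5851.9 scaled reads per kb and held 1096, 1128 and 1384 reads. A 477 bp peak 29187 bp from Rpusd4, a gene of RNA pseudouridylation, held 864, 1158 and 1956 reads. These 3 peaks were highest in replicate 3, as was a 1927 bp peak at the end of Sfi1 (903, 1200 and 1251 reads), and no other peak of the top 100 by mean value was. The only other peak outside Sfi1 among the 10 highest per kb, a 212 bp peak in a desert 57972 bp from Cdh12, a cadherin gene, was highest in replicate 1 and lowest in replicate 2, with 747, 138 and 357 reads and 2699.0 scaled reads per kb. Of the 20 peaks highest per kb, 17 were under 500 bp long and none covered a promoter window or lay at a gene end. As at Sfi1, the sources used here do not say how reads matching several places were assigned, so the levels of these short peaks are uncertain too.

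The other peaks among the 20 highest were mostly broad and at gene ends. They lay at Zfp788, a zinc finger gene, with 1574, 1599 and 982 reads, and at Aasdhppt, whose enzyme attaches phosphopantetheine to carrier proteins, with 1546, 1482 and 945 reads. Pdcd10, a gene of vascular and kinase signalling (1459, 1367 and 909 reads), Hjurp, the chaperone of the centromeric histone (1349, 1445 and 892 reads), and Dsel, of dermatan sulfate synthesis (1239, 1246 and 881 reads), followed. The list ended with Evi5l (1373, 1245 and 763 reads) and Crem, a cAMP-responsive transcription factor gene (1212, 1274 and 826 reads). In each of these 7 peaks replicate 3 had the lowest value, also after scaling, which left its total of scaled reads below those of replicates 1 and 2.

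Peaks away from the gene ends reached the same level at a few genes. The peak nearest to Pdcd1, the gene of the inhibitory receptor PD-1, lay 2328 bp outside the gene (chr1:94034784-94035977) and held 1560, 1386 and 941 reads, for a mean value of 10.78. A 1376 bp peak 32079 bp from Scaf8, whose protein binds RNA polymerase II, held 1397, 1691 and 1165 reads. A 1358 bp peak 34277 bp from Mrps28, a gene of the mitochondrial ribosome, held 1540, 1381 and 925 reads. Below the 20 highest, the peak of Bhlhe40, a transcriptional repressor gene, ranked 26 with 1182, 1073 and 831 reads, and a peak inside Bach2, a repressor gene of lymphocytes, ranked 48 with 993, 1041 and 738 reads. Over the top 100 peaks, 71 lay at gene ends, and 64 of the 95 outside chromosome 18 covered a promoter window, as did 6 of the 19 such peaks among the 20 highest.

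**Figure D2:**
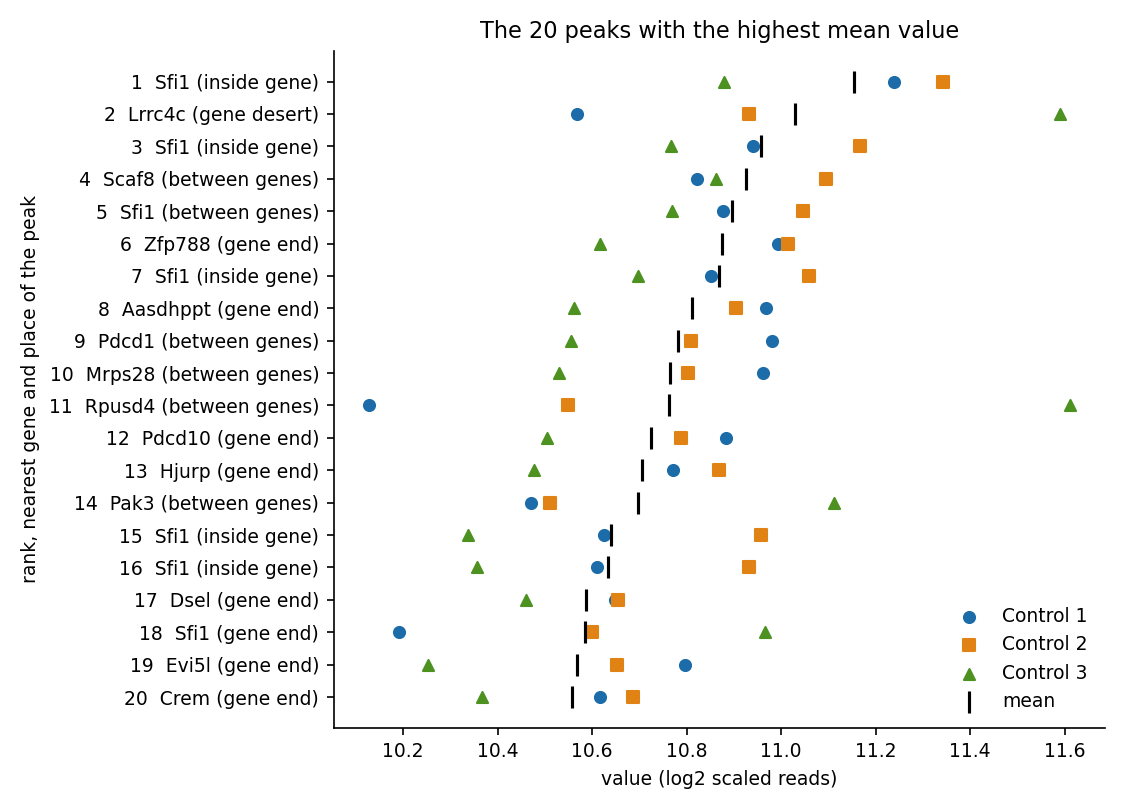
The 20 peaks with the highest mean value, by rank, nearest gene and place; points are the values of the 3 Control libraries in log2 scaled reads and the bar is their mean. Replicate 3 is lowest in 15 of the 20 and highest in 4, those nearest to Lrrc4c, Rpusd4 and Pak3 and 1 at the end of Sfi1.

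At the other end of the ranking, 4 peaks held 0 reads in every Control library, which allows up to 3 reads in each library. All 4 lay on chromosome 17 near Dynlt1b, a dynein light chain gene, and Gm2808, between 6426919 and 6476947. Another peak over the end of Dynlt1b held 1, 0 and 0 reads and another 4605 bp away held 0, 2 and 0. Dynlt1b has near-identical copies beside it, and the levels there are uncertain for the same reason as at Sfi1. The next lowest peaks held 0 to 3 reads each and lay in a desert near Edil3, 28299 bp from Usp24, and inside Trip12, Hivep3 and Ncor1. The peak set of the table therefore holds places with no or hardly any signal in Control cells. The sources used here do not say whether peaks were called on each library or on pooled libraries.

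Summed per gene, the signal was spread over many genes. Peaks were assigned to the closest coding gene, up to 50 kb from its body. This placed 32568 peaks, with 92.7% of the scaled reads, at 13132 of 21883 genes. A gene had a median of 2 peaks, 6473 genes (49.3%) had 1 peak and 343 had 10 or more. The 2062 genes with the highest sums (15.7%) held 50% of the gene-assigned signal. The sum correlated more with the bases covered by peaks (Spearman's rank correlation 0.871 over 13132 genes, which share the libraries) than with the number of peaks (0.594) or the length of the gene body (0.265). The median variation between replicates of a gene's sum was 14.5% of its mean.

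Sfi1 had the highest sum in every library, with 19978, 23787 and 20956 scaled reads, 0.507% of all signal and 4.58 times the next gene. Without the peaks over 1500 scaled reads per kb it kept the first rank, with 5779.0. Itpr1, the inositol trisphosphate receptor that releases calcium, came next with 5033.4, 4979.2 and 4106.6 in 27 peaks. Scaf8 followed with 4028.9 ± 413.9 (SD, n = 3) in 11 peaks, of which the peak described above held 48.5%. Atp10a, a phospholipid flippase gene, had 3755.8 ± 669.0 in 25 peaks, and Akap13, an anchor of kinases, had 3495.9 ± 440.8 in 34 peaks, the most of any gene. Below the first 2 genes, neighbours in this order differed by less than these SDs.

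Several of the highest-summed genes encode transcription factors and signalling proteins. Hivep2, a zinc finger gene, reached 3263.5 ± 422.8, Bhlhe40 3253.4 ± 247.9 and Bach2 3133.0 ± 274.1. Ncoa7, a nuclear receptor coactivator gene, reached 2808.0 ± 373.2. Among signalling genes, Camk2d, a subunit of a calcium-dependent kinase, reached 3166.9 ± 518.9 and Pde4b, which breaks down cAMP, 2843.7 ± 353.8. Genes of actin regulation and cell shape were Arhgap26 (3130.0 ± 170.4), Diaph3 (3067.7 ± 661.7) and Trio (2829.3 ± 162.4). Cd82, a tetraspanin gene, reached 3026.7 ± 215.0. The remaining genes of the 20 highest were Ttc39b, Fhit, Ston2, Mdfic and Prss2, with sums between 2744.1 and 3251.7. The 20 genes had 9 to 34 peaks each and a median body of 181936 bp, against 25248 bp for all genes with a peak, and 2 of them, Bach2 and Bhlhe40, were on the gene lists described below.

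The place of Prss2 shows a limit of naming by the nearest coding gene. Prss2 encodes a trypsin of the pancreas, and its sum was 2916.2, 3167.7 and 2148.4 scaled reads. Its gene lies within the T cell receptor beta locus, Tcrb (chr6:40891296-41558371), and 9 of its 10 peaks lay inside that locus. The highest, at chr6:41554005-41555143 and 28926 bp from Prss2, held 827, 906 and 496 reads. The next highest, at chr6:41504764-41505705, held 667, 811 and 364 reads. The T cell receptor segments are not annotated as protein-coding, so their peaks were counted for Prss2.

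Per kb of peak the order of genes differed, and 5 of the 100 genes with the highest sums were among the 100 highest per kb. Among genes with at least 3 peaks, Sfi1 had 1706.1 scaled reads per kb, Evi5l 798.0, Npnt 783.6 and Mrps28 722.9, and Eny2, Dppa2, Cetn3, Pdcd10, Jag1 and Plscr2 lay between 635.1 and 720.2. The median over all genes with a peak was 153.2. Genes with 1 peak were led by Rpusd4 and Pak3, whose short peaks of uncertain level were described above, and then by Hjurp (1680.8 ± 229.2), Dsel (1541.7 ± 115.6), Mon1b (1451.7 ± 181.6) and Zyx (1429.6 ± 183.5), all with a peak at a gene end. Ddias, Fh1, Hbp1 and Bmt2 followed, between 1308.8 and 1409.9. The genes with the lowest sums, apart from Gm2808, were B3galt1 (0, 6 and 0 reads), Col10a1 (0, 7 and 1) and Tmem200a (0, 5 and 3), each with 1 peak and named after their values were seen. Foxb2 and the odorant receptor genes Olfr837 and Olfr195 followed, with 0 to 5 reads in each library.

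Every gene of the ILC transcription factor, type 3, shared and LTi-like lists had a peak, as had every housekeeping gene. Genes of other cell types had one about as often as any coding gene. Of the 48 genes on the 5 lists of T, B, myeloid, epithelial and stromal markers, 27 had a peak (56.2%), against 60.0% of all coding genes. The listed genes were placed by the percentile of their sum among the 13132 genes with a peak, for which the median is 50. The 26 ILC transcription factor genes all had a peak, with a median percentile of 95.5, and 16 of them were in the top 10%. The 16 type 3 effector and receptor genes all had a peak (median 87.6), as did the 13 shared ILC surface and homing genes (85.7) and the 11 LTi-like genes (79.9). A gene with a peak assigned to it is called open here, however few its Control reads. Type 2 genes had a median of 53.3 with 10 of 14 genes open. The list of type 1 genes, which includes natural cytotoxicity receptor (NCR) genes, had a median of 49.0 with 23 of 24 open. When peaks were counted only within 5 kb of a gene body, these medians were 30.1 and 29.8, and those of type 3, LTi-like, shared and transcription factor genes were 67.2, 65.3, 76.6 and 91.6. The lists were described by counts and medians and not tested, and since the sum grows with the bases in peaks, the medians by each gene's highest peak were lower: 77.7 for the transcription factors, 65.6 for type 3, 63.4 for the shared genes and 65.0 for the LTi-like genes. The 14 housekeeping genes had medians of 65.0 by the sum, 64.3 within 5 kb and 73.5 by the highest peak. In bulk libraries, a site open in few cells and a site weakly open in all cells cannot be told apart.

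**Figure D3:**
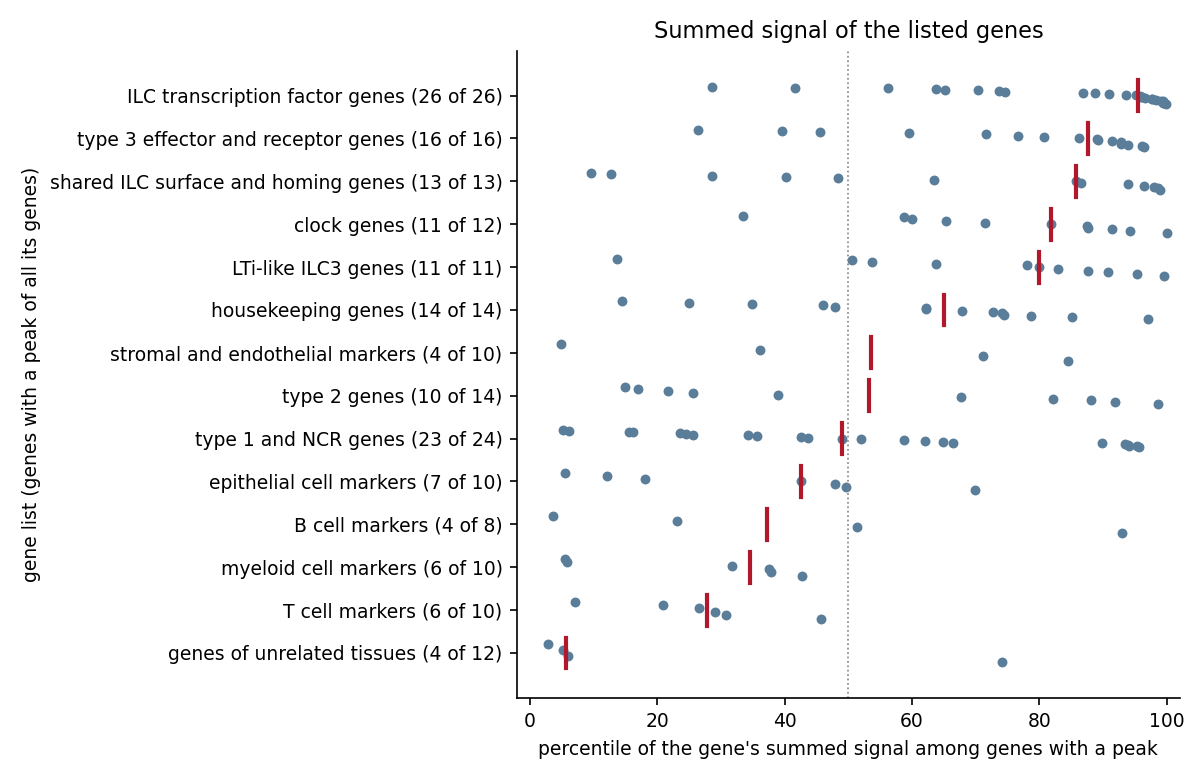
Percentile of the summed signal of each listed gene (points) among the 13132 genes with a peak, with the median of each of 14 lists as a bar and the 50th percentile as a dotted line; genes without a peak are not drawn and are counted in the labels. The ILC transcription factor list has its median at 95.5 and the list of unrelated tissues at 5.65.

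Among the transcription factors, Bach2 had the highest sum (3148.0, 3399.3 and 2851.7 scaled reads in 18 peaks). Zeb2, a zinc finger repressor gene, had 2352.9, 2568.6 and 1721.6 in 10 peaks, and Tox, needed for ILC development, 2205.3, 2215.3 and 1707.2 in 22 peaks. Rora, a nuclear receptor gene of ILCs, had 1986.5 ± 129.5 and Ikzf2, encoding Helios, 1916.9 ± 339.9. The 3 Runx genes, whose proteins bind DNA with Cbfb, had 1739.6 ± 145.8 (Runx1), 1060.8 ± 168.1 (Runx3) and 886.1 ± 11.1 (Runx2). Ahr, the sensor of aryl hydrocarbons that type 3 ILCs need, had 1083.1 ± 208.0. Tcf7, encoding TCF-1 of ILC precursors, had 741.5 ± 96.1, and Id2, which marks all ILCs and drives the Cre of these mice, had 654.4 ± 23.3 (489, 525 and 407 reads). The lowest were Bcl11b, a factor of T cells and type 2 ILCs (142.6 ± 9.47), and Id3 (92.6 ± 12.6).

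Type 3 genes were led by the receptor of interleukin 1, Il1r1, with 1124.0, 1098.6 and 1130.1 scaled reads in 14 peaks. Cd93, a surface protein gene, had 1236.7, 1076.6 and 941.5, and Tnfsf11, encoding RANKL, 1050.2, 901.9 and 784.9. The cytokine genes were Il17a (848.4 ± 132.7), Csf2 (761.8 ± 68.4), Il17f (665.9 ± 139.5) and Il22 (338.9 ± 33.0, from 291, 250 and 198 reads in 4 peaks). Il23r, the receptor for interleukin 23, had 841.3 ± 107.4. Il17re (159.3 ± 22.6), Ccl20 (134.9 ± 25.3) and Tnf (84.6 ± 4.28) were lowest, with 1 to 3 peaks each. Of the LTi-like genes, Kit, a receptor of stem cell factor, had 2213.0, 2058.7 and 2033.3 in 10 peaks, Il2ra 1025.8 ± 36.8 and Cd83 733.5 ± 24.2. Ccr6, a chemokine receptor of LTi-like cells, had 183.7 ± 37.5 in 6 peaks, and Cd4 had 45.5 ± 3.28 in 1 peak.

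Type 1 and type 2 lists each spanned high and low sums. Among type 1 and NCR genes, Cd226, an activating receptor gene (1076.1, 1305.6 and 775.3), Stat4 (1014.8 ± 45.8) and Itga1 (919.9 ± 167.6) were highest. Ncr1, encoding NKp46, had 230.5 ± 39.5 and Ifng 176.2 ± 13.4. The type 1 regulators Tbx21 and Eomes had a mean of 82.1 (69, 46 and 61 reads) and 51.3 ± 4.17, Klrd1 was lowest with 22.9 ± 7.48, and Gzma had no peak. Among type 2 genes, Gata3, which all helper-like ILCs use, had 1648.4, 1636.9 and 1406.7 in 7 peaks, and Arg1 and Klrg1 followed with 786.8 ± 191.5 and 630.1 ± 57.7. Il5 had 132.6 ± 39.8 and Il1rl1, the receptor of interleukin 33, the lowest sum with 49.4 ± 7.07. Il13, Il4, Il17rb and Ptgdr2 had no peak.

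Shared surface genes were led by Cd69, a marker of tissue residency (1864.7, 1796.1 and 1421.1), Itga4, an integrin of gut homing (1541.1 ± 93.7), and S1pr1, the receptor for lymphocyte egress (1366.1 ± 187.7). Il7r, on which ILCs depend, had 566.7 ± 95.8. Ccr9, a gut homing gene (42.8 ± 11.5), and Itgae, an integrin gene (34.0 ± 8.27), were lowest. Clock genes had a median percentile of 81.9 with 11 of 12 open, led by Bhlhe40, Arntl (924.2 ± 60.2), which encodes BMAL1, and Nr1d2 (766.8 ± 93.0). Per3 was lowest (110.8 ± 10.0), and Bhlhe41 had no peak.

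Of T cell markers, 6 of 10 had a peak (60.0% of all coding genes did), with a median percentile of 27.7 and summed levels of 562.0, 551.2 and 485.9 over the list. Cd3d (159.9 ± 8.24), Cd40lg (100.3 ± 19.2) and Cd28 (93.6 ± 42.0) were highest, Cd3e was lowest (27.5 ± 9.53), and Cd3g, Cd6, Cd8a and Cd8b1 had no peak. The T cell receptor locus Tcrb, which is on no list, held 9 of the 10 peaks summed for Prss2, the 20th highest gene. B cell markers had 4 of 8 genes open (median 37.2), led by Blk (849.6 ± 17.4), Pax5 (188.0 ± 22.8) and Ebf1 (73.6 ± 16.0), with Cr2 lowest (18.5 ± 1.43) and no peak at Ms4a1, Cd79a and Cd79b, among others. Myeloid markers had 6 of 10 open (median 34.6), from Spi1 (147.0 ± 25.5), Fcgr1 (127.5 ± 4.53) and Cx3cr1 (126.0 ± 3.18) to Itgam (23.8 ± 5.37), and none at Csf1r, Lyz2, Cd68 and Mpeg1. Over these lists the summed levels were 1076.1, 1167.2 and 1146.1 for B cells, most of it from Blk, and 529.6, 590.1 and 537.1 for myeloid cells. The part of such cells in the libraries was not tested.

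Epithelial markers had 7 of 10 open with a median percentile of 42.6 (17.7 with peaks within 5 kb), led by Lgr5 (321.9 ± 43.9), Epcam (178.9 ± 2.42) and Cdh1 (170.0 ± 24.2). Hnf4a was lowest (23.7 ± 8.57), and Krt19, Vil1 and Fabp2 had no peak. Stromal and endothelial markers had 4 of 10 open (median 53.6, or 33.1 by the highest peak), Pdgfrb (535.3 ± 18.7), Pecam1 (333.5 ± 3.86), Pdgfra (120.4 ± 43.3) and Col1a2 (21.9 ± 5.69). Col1a1, Col3a1, Cdh5, Kdr, Acta2 and Dcn had none. Genes of unrelated tissues had 4 of 12 open and a median of 5.65: Neurog2 reached 366.9 ± 32.5, and Neurod1, Pou5f1 and Gfap lay between 16.1 and 25.02. Alb, Apoa1, Syt1, Snap25, Myh6, Ins2, Myod1 and Nkx2-5 had no peak. All 14 housekeeping genes had a peak, with a median of 1 peak per gene, and a median percentile of 65.0 by the sum and 73.5 by the highest peak. Ywhaz (1226.7 ± 7.53) and Eef1a1 (550.4 ± 81.8) were highest and Tubb5 lowest (47.9 ± 5.63).

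Gene families differed in how many members had a peak of the table assigned to them. Such a peak can hold hardly any Control reads: Olfr837 and Olfr195 count as open with 0, 4 and 4 reads each. Odorant receptor genes (symbols starting with Olfr) had a peak within 50 kb at 59 of 1110 genes (5.32%), vomeronasal receptor genes (Vmn) at 21 of 355 (5.92%) and Hox genes, which pattern the body axis, at 15 of 39 (38.5%), against 13132 of 21883 (60.0%) over all coding genes. Proteasome genes (Psm) had one at 43 of 51 (84.3%), zinc finger genes named Zfp at 330 of 400 (82.5%), and genes whose symbols start with Rpl or Rps, mostly of ribosomal proteins, at 83 of 101 (82.2%). Genes of mitochondrial complex I (Nduf) had one at 36 of 49 (73.5%). Being open did not mean a high sum: the median percentile was 40.8 for Psm, 37.8 for Rpl and Rps and 40.3 for Nduf, with a median of 1 peak each, and 51.4 for Zfp. Of the open genes, 90.7% of Psm, 88.0% of Rpl and Rps and 91.7% of Nduf had a gene-end peak, against 27.1% of Olfr and 75.4% of all.

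The 3 libraries ranked peaks alike. Pearson's r of the values over the 36251 peaks was 0.928 between replicates 1 and 2, 0.910 between 1 and 3 and 0.918 between 2 and 3, as a description, since peaks share libraries. It was 0.946 to 0.954 over gene-end peaks and 0.877 to 0.905 over all others. The 100 highest peaks shared 87, 83 and 82 members in the same pairs, and the 1000 highest shared 880, 855 and 829. For log2 gene sums r was 0.966, 0.960 and 0.962.

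The spread between replicates exceeded what read counting alone gives. The median SD over all peaks was 0.29. The root mean square SD fell from 1.36 in peaks with a mean value up to 3, which held a median of 4 reads, to 0.22 in peaks over 9, which held a median of 497 reads, while the SD expected from counting fell from 0.70 to 0.06. The chi-square test of the reads of the 3 libraries against their totals, with Benjamini-Hochberg adjustment at 0.05, called 8010 of 35367 peaks (22.6%), and 12921 had an unadjusted p under 0.05. The share called was 27.9% at gene ends, 19.7% inside genes, 20.2% between genes and 23.1% in deserts. Of the 20 highest peaks 19 were called, all but the one at Dsel, and of the top 100, 71. Beyond counting, the coefficient of variation between libraries was 18.8% over 28288 peaks with a mean of at least 20 reads. With only 2 libraries compared, 4852 peaks were called without replicate 1, 4271 without replicate 2 and 2919 without replicate 3. The test compares these libraries, and deep peaks can be called on small differences.

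Part of this spread was shared by peaks of the same level. Replicate 3 had the narrowest range of values, with 4.85 between its 5th and 95th percentiles, against 5.34 in replicate 2 and 5.79 in replicate 1. In peaks with a mean value up to 3 its mean deviation from the peak's mean was 0.72, and in peaks over 9 it was -0.18, while replicate 1 had -0.74 and 0.10. The low peaks lie near a floor that differs between libraries. An empty peak has a value of 0.22, 0.22 and 0.52 in replicates 1, 2 and 3, and 1 read counts as 1.29, 1.29 and 1.60 scaled reads. The part of this floor in the deviations was not tested. In the top 1% of peaks 330 of 362 were lowest in replicate 3, and 12 were highest there. Of all 18126 peaks at or above the median value, 8822 were lowest in replicate 3. The deposited scaling did not make the totals of the libraries equal. Scaled reads in gene-assigned peaks summed to 4.06e+06, 4.01e+06 and 3.75e+06 in replicates 1, 2 and 3, with median values over all peaks of 5.96, 5.99 and 5.96. The part of the lower total of replicate 3 in these counts was not tested. Replicate 1 had 190 peaks with no read, replicate 2 had 36 and replicate 3 had 20. Replicate 3 also had the fewest reads, and the part of depth in this was not tested.

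**Figure D4:**
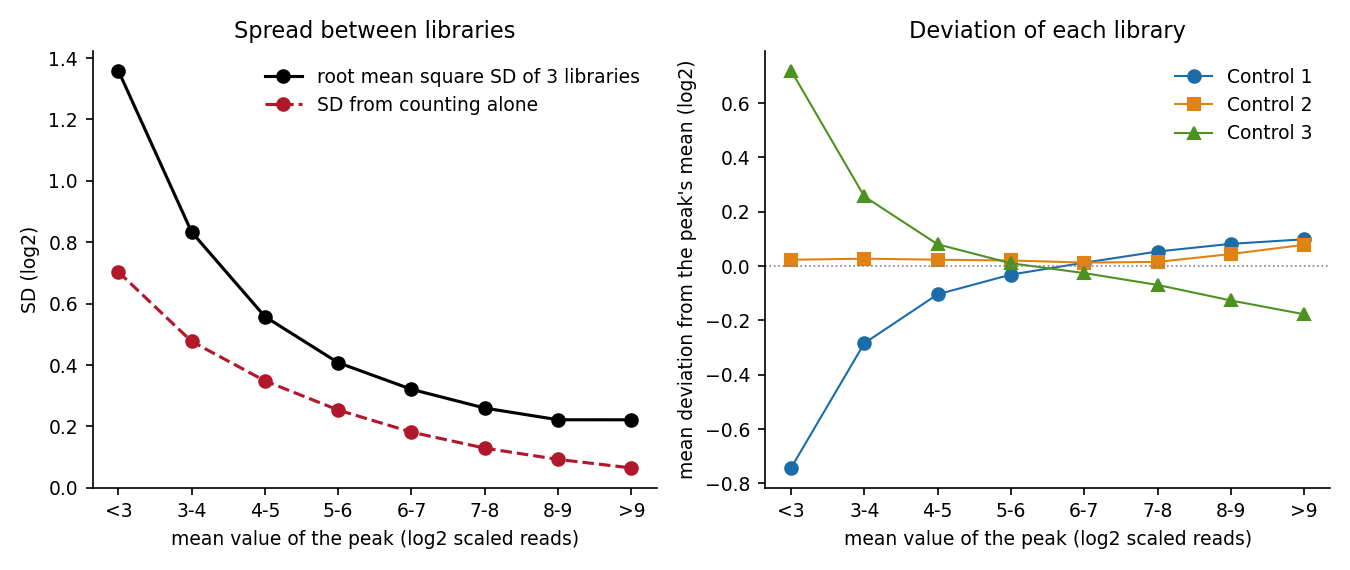
Left, root mean square SD of the values over the 3 Control libraries (solid) and the SD that read counting alone gives (dashed), in 8 bins of the peak's mean value in log2 scaled reads; right, mean deviation of each library from the peak's mean in the same bins. The SD falls from 1.36 to 0.22 and stays above the counting SD, and replicates 1 and 3 deviate in opposite directions in the lowest and highest bins.

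Among peaks at or above the median value, those that varied most between replicates lay mostly on X. Of the 10 with the largest SD among the 18126 peaks at or above the median value, 9 lay on X and were lowest in replicate 3. Of these, 8 lay in Firre, an X-linked long noncoding RNA gene known for open chromatin on the inactive X. The other covered the overlapping genes Xist, whose RNA coats the inactive X, and its antisense partner Tsix. The tenth was the peak near Cdh12 described above (chr15:21656393-21656604). X held 15 peaks with an SD over 1 among its 491 at or above the median (3.05%), and the autosomes held 7 among 17635 (0.0397%). Over all peaks, low ones included, the contrast was smaller: 68 of 940 on X (7.23%) and 1518 of 35311 on autosomes (4.30%). The smallest SDs belonged to peaks near Tent5a, Ttc39c, Ets1, Zfp280b and Pcbp3, at 0.0006 to 0.0020; the first held 63, 63 and 51 reads.

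Replicate 3 was low across these X-linked genes. Firre (chrX:50563120-50635321) had 2244, 2180 and 259 reads over 13 peaks in replicates 1, 2 and 3, and 12 of the 13 were lowest in replicate 3. The peak at chrX:50590819-50591787 held 211, 163 and 6 reads. Xist (chrX:103460373-103483233) had 273, 312 and 23 reads over its 2 peaks, which include the peak over Xist and Tsix described above. Genes known to escape X inactivation were low there too. The chromatin regulator genes Kdm6a (1337, 1285 and 313 reads in 4 peaks) and Kdm5c (384, 381 and 109), the translation factor gene Eif2s3x (273, 336 and 110) and Pbdc1 (456, 409 and 93) held fewer reads in replicate 3 than its lower total would give, and the RNA helicase gene Ddx3x held 359, 390 and 206 reads. These 5 genes and Xist were chosen after the Firre values were seen.

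Over X as a whole replicate 3 was also lower, though not in every peak: the peak near Pak3 described above was highest in replicate 3. The median value of the 940 X peaks was 6.18, 6.28 and 5.76 in replicates 1, 2 and 3, while the autosomal medians were 5.96, 5.99 and 5.96. X held 2.56%, 2.64% and 2.14% of the reads. The chi-square test called similar shares of the tested peaks, 24.3% on X and 22.6% on autosomes. At or above the median value the shares were 26.9% and 27.4%. Replicate 3 was the lowest library in 67.4% of X peaks and 37.7% of autosomal peaks. By gene sums at or above the median, it was the lowest for 162 of 195 X genes (83.1%) and for 3416 of 6371 autosomal ones (53.6%). The 20 such genes with the largest spread held 10 on X, with Pls3 (349, 373 and 77 reads) and Tmem29 (669, 698 and 154) among the first 4, and on autosomes Ly6c2, a surface antigen gene of myeloid and lymphoid cells, was highest in replicate 3 (316, 598 and 948 reads). On Y, 4 peaks between 259058 and 1286715 held 0 and 0 reads in replicates 1 and 2 and 222 in replicate 3. The other 7 Y peaks held reads in every library, 525, 582 and 1189 in replicates 1, 2 and 3. The sources used here do not give the sex of the mice, and its part in these values was not tested.

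**Figure D5:**
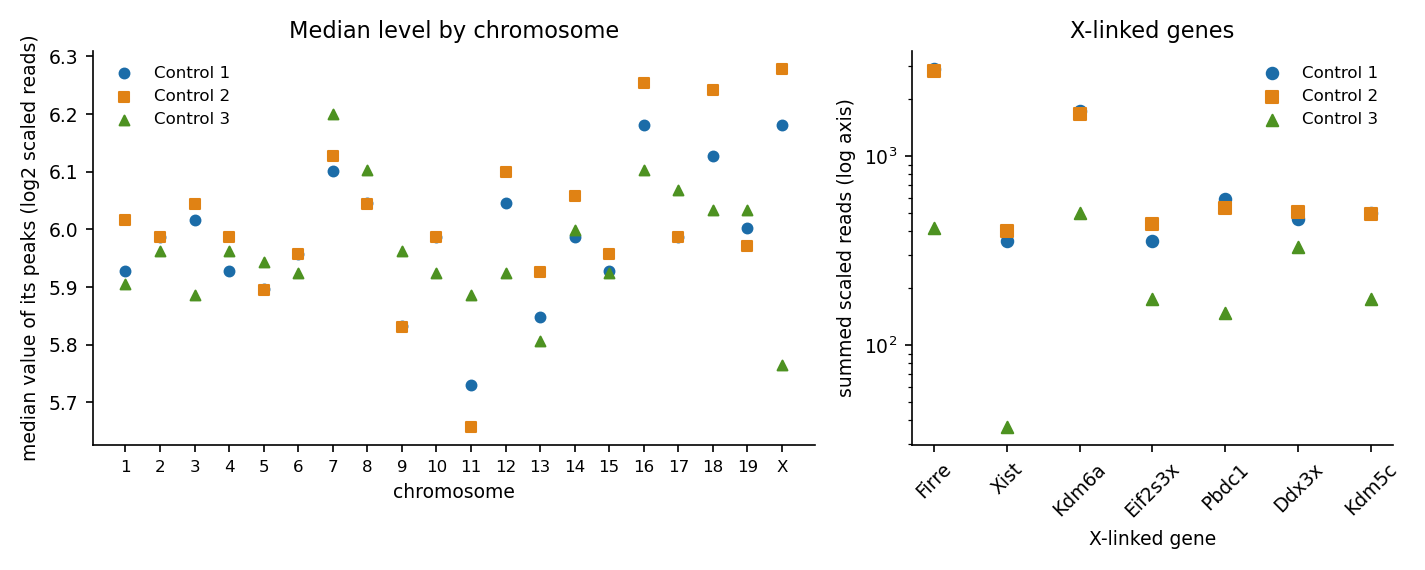
Left, median value of the peaks of each chromosome in each Control library (log2 scaled reads); right, summed scaled reads of 7 X-linked genes in each library on a log axis. On X replicate 3 has a median of 5.76 against 6.18 and 6.28, and it is lowest in all 7 genes.

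With autosomes alone, the mean r over the 3 pairs was 0.921, against 0.918 with X, and the chi-square test called 7780 peaks, against 8010.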

How the data were processed

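Per the submitters' processing notes, the authors used Trim Galore 0.62, Bowtie2 2.3.5.1, SAMtools and MACS2, with GRCm38 as the build. The deposited values are log2 scaled reads per peak. The sources used here do not say how the scaling factor was set. Raised to the power of 2, all non-empty values of each Control library were whole multiples of 1 step (tolerance 0.01), which gave the reads; empty peaks hold 0.9 of a step.

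Everything else was computed with Python 3.11.15, pandas 2.3.3, numpy 2.4.6 and scipy 1.17.1. Peaks were ranked by their mean over the 3 libraries and, for genes, by the summed scaled reads of peaks whose nearest protein-coding gene (RefSeq, GRCm38.p6) lay within 50 kb. Promoter windows were RefSeq's, of which 17491 of 21883 coding genes had one, and windows on chromosome 18 were not used; peaks there were left out of shares of peaks covering a window. The chi-square test used peaks with at least 5 expected reads in each library. A count-model estimate of dispersion had been planned; because the deposited unit is log2, the variation beyond counting was estimated from the moments of the recovered reads. Scripts were tested on simulated data. Values are means ± SD of 3 libraries, whose spread measures biological and technical differences together; reads are PCR products, so floors cover counting error only.

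The members, gene lists and tests were chosen with earlier results of these data known. Named were the 20 highest and 10 lowest peaks, the 10 highest per kb, the 20 highest genes, the 10 highest per kb with at least 3 peaks and the 10 highest with 1 peak, the 3 highest and the lowest gene of each list and those lacking a peak, and the 10 largest and 5 smallest SDs at or above the median value; predicted genes and other members of named loci could be left unnamed. Some genes were added for their known roles. Some items are not reported here.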

Additional observations from a re-analysis of the deposited data

Results flagged for a closer look

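The 11 peaks on Y, which were left out of the ranking, held reads above the limit of 3 that a count of 0 allows. In 4 of them, between 259058 and 1286715, replicates 1 and 2 held 0 reads and replicate 3 held 222 in all (63, 40, 38 and 81). The other 7, between 90737591 and 90813037, held 525, 582 and 1189 reads in replicates 1, 2 and 3.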

How the results depend on the processing

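No paired analysis was possible because only the Control group enters. Of 52 alternatives to the results on agreement, places, concentration, rankings and lists, 38 kept the main result. Kept means a value within the spread between libraries or a count within 1.5 times. Only the difference per kb between gene ends and the insides of genes was judged by direction. All 6 alternatives to that difference kept its direction, and its test was not rerun. That difference of 0.33 was 0.20 over peaks with at least 10 reads and 1.40 as a level per peak, both outside the spread between libraries. The mean r of 0.918 became 0.936 with depth-scaled log2 reads with a pseudocount of 1 and 0.939 by rank, and 0.910 to 0.928 without 1 replicate. Peaks differing beyond counting numbered 2919 to 4852 with 2 libraries, fewest without replicate 3. The share of scaled reads at gene ends was 46.3% within 500 bp, 52.7% within 2 kb and 43.2% in promoter windows. The top 1% of peaks by level per kb held 6.57%. Of the 100 highest peaks, 42 were also among the 100 highest per kb. Of the 100 highest genes, 21 remained by their highest peak, 4 by the mean per peak and 5 by the sum per kb, so the order of genes depends on the measure. List medians moved beyond their spread in 22 of 70 alternatives. Apart from the transcription factor median without replicate 3, all of these used the 5 kb window or the highest peak, and most list medians moved with these. For values judged by the spread between libraries, leaving out 1 replicate was a weak check, because the spread came from the same 3 libraries. Even so, the mean r without replicate 3 moved. The counts of peaks differing beyond counting, judged by the factor of 1.5, fell below it with each replicate left out. Within 5 kb of the gene body the type 2 median was 30.1, and by the highest peak the stromal median was 33.1. Among the alternatives, those on autosomes, without Sfi1, without the peaks over 1500 per kb and the minimum length of 200 bp were chosen after seeing the data. Depth limits the lowest peaks: those with a mean value up to 3 held a median of 4 reads and had a root mean square SD of 1.36.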
